A study of Caenorhabditis elegans with 24 samples.

Results

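Of 46726 features listed in a table of antisense small RNA levels in Caenorhabditis elegans, 66 protein-coding genes were altered by a rule on group means in hrde-1; meg-3/4 triple mutants while meg-3/4 double mutants stayed near wild type: 30 with more small RNA (gains) and 36 with less (losses). The members were chosen from group means with 5 normalized counts added. The ratio of meg-3/4 to wild type had to lie between 0.67 and 1.5, and that of hrde-1; meg-3/4 to wild type had to be at least 2.5 or at most 0.4. Both libraries of the higher of the hrde-1; meg-3/4 and wild-type groups had to reach 50 normalized counts. Genes on X, F-box, BATH, MATH, ribosomal protein and histone genes by symbol, and 6 single genes were left out. These ratios chose the members, so the levels in the 3 strains are given as a description, with no test.

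The groups of 2 libraries each were hrde-1; meg-3 meg-4 (strain YY1512), meg-3 meg-4 (strain JH3225), animals with a wild-type genotype that descend from a meg-3/4 outcross (each generation of F3 to F7, then F10, F15, F20 and F25), and wild type (N2). All were synchronous populations of whole young adults grown at 20 °C on OP50. The sources used here do not give the alleles, and the triple mutant carries meg-3 meg-4 mutations as the double mutant does; no hrde-1 single mutant enters any comparison. The 2 libraries of a group are labelled biological replicates with no word on separate cultures, so p-values measure the spread between these libraries. In whole animals, fewer cells that make a small RNA and less of it per cell cannot be told apart. The libraries held 392785 to 3420345 recovered reads, with F10 replicate 1 and F4 replicate 2 far below the other 22; 1 read was worth 5.47 and 4.99 normalized counts in these and 0.51 to 1.86 elsewhere.

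HRDE-1 is a nuclear Argonaute of the germline that binds secondary siRNAs, which RNA-dependent RNA polymerases copy from target transcripts and which are therefore antisense to genes. With the nuclear RNAi factors it represses its targets on chromatin and carries that silencing to the progeny. MEG-3 and MEG-4 are disordered proteins that build the germ granules of the embryo, the compartments in which many small RNA factors gather. The deposited values lie antisense to the annotated genes: in 26 of 28 places where a microRNA gene faces a non-coding feature, the feature on the opposite strand was the higher one. As a partial check of the labels, hrde-1 itself had 629 and 599.9 normalized counts in hrde-1; meg-3/4, against 1164 and 1115 in meg-3/4 and 1351 and 1359.9 in wild type. The meg-3 level was 14.4 and 4.73 in the triple mutant, 7.74 and 7.86 in meg-3/4 and 42.8 and 64.2 in wild type, and the meg-4 level was 0.901 and 4.73 in the triple mutant, 12.2 and 3.93 in meg-3/4 and 54.99 and 74.2 in wild type. The 3 targeted genes were thus lower in the strains labelled as mutant for them, although the extent of each mutation is not known here.

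Among 4092 autosomal protein-coding genes that met the level, 92 (2.25%) had a ratio of at least 2.5 in hrde-1; meg-3/4 over wild type, and 30 of these are the gains. Of the other 62 genes, 22 passed the same threshold in meg-3/4, 12 were higher there but short of it, and 28 were lower there. At the other end, 290 genes (7.09%) had a ratio of at most 0.4, of which 36 are the losses. Most of those 290 genes, 211, were also at most 0.4 in meg-3/4, 25 were lower but short of the threshold, and 18 were higher. A gain was therefore 32.6% of the genes raised in the triple mutant, and a loss 12.4% of those lowered. Just inside the gain threshold lay Y94H6A.12, C56G2.15 and C15C8.7, with ratios of 2.56, 2.59 and 2.60, and just outside it W02B12.1, fkb-8 and C53H9.3, with 2.41, 2.36 and 2.32. For the losses, pll-1, C30G7.3 and Y20F4.4 lay inside at 0.391, 0.390 and 0.387, and nlp-81, ZK836.3 and swah-1 outside at 0.419, 0.421 and 0.427.

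**Figure D1:**
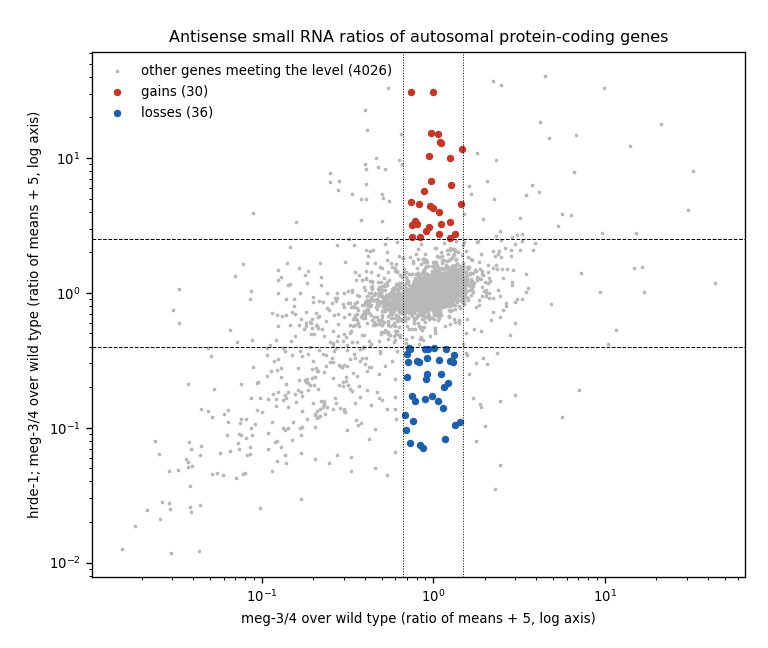
Ratio of hrde-1; meg-3/4 to wild type (vertical log axis) against that of meg-3/4 to wild type (horizontal log axis), each from group means plus 5, for 4092 autosomal protein-coding genes; dashed lines mark 2.5 and 0.4 and dotted lines 0.67 and 1.5. The 30 gains and 36 losses fill the 2 boxes that the thresholds define, and many more genes lie at the lower left, where both ratios are low.

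The rule asks for 50 normalized counts only in the triple mutant for a gain and only in wild type for a loss, so the wild-type levels of the sets follow from it in part and are not set against each other. The median level of the gains was 206 normalized counts in hrde-1; meg-3/4, 41.1 in meg-3/4 and 36.5 in wild type, and 18 of the 30 had a wild-type mean under 50. The ratio of hrde-1; meg-3/4 to wild type ranged from 2.56 to 30.7, with a median of 4.48. Summed over the gains, the level was 31159 and 28848 normalized counts in the triple-mutant libraries and 8196 and 8523 in the wild-type libraries. W04A8.9 and B0250.8, the most abundant gains, made up 67.9% of that sum in the triple mutant.

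F16B4.4 (WBGene00017506, chromosome V, 1594019 to 1594673) had the largest ratio. It had 166 and 132 normalized counts in hrde-1; meg-3/4, 0 and 0 in meg-3/4, and 0 and 0 in wild type. In the 18 descendant libraries it never exceeded 1.19, the worth of 1 read in F10 replicate 2. The triple-mutant mean was at least 85.2-fold higher than the mean level of 3 reads in the wild-type libraries (95% limit for a count of 0, counting error only). Y54F10BM.13 (WBGene00021867, chromosome III, 2329577 to 2331083) had 1204 and 1354 in hrde-1; meg-3/4, 29.9 and 22.6 in meg-3/4 and 30.7 and 43.2 in wild type, and 9.69 to 49.2 in the descendants. Its exons share bases with Y54F10BM.12 on the same strand, which could split reads with it but stayed at 11.7 and 8.67 in the triple mutant and 7.52 and 2.92 in wild type. R10E4.3 had 222 and 264 in hrde-1; meg-3/4, 11.1 and 10.8 in meg-3/4 and 14.5 and 8.17 in wild type. In each of these 3 genes the triple-mutant libraries stood apart from all 22 others, of which the rule did not use the 18 descendant libraries.

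Y17G9B.2 was at 129 and 117 normalized counts in hrde-1; meg-3/4, 2.21 and 5.89 in meg-3/4 and 1.16 and 5.84 in wild type. ZK809.9 was at 96.4 and 79.6 in hrde-1; meg-3/4, 4.42 and 0.982 in meg-3/4 and 2.89 and 1.17 in wild type. These are a handful of reads outside the triple mutant, so their ratios of 15.08 and 13.2 depend on the 5 counts added. F35H10.10 reached 188 and 229 in hrde-1; meg-3/4, against 25.4 and 18.7 in meg-3/4 and 18.5 and 8.17 in wild type. Its exons overlap vha-5, a vacuolar proton pump subunit gene, on the opposite strand. ZK228.4 had 63.0 and 70.2 in the triple mutant, 5.53 and 4.91 in meg-3/4 and 5.79 and 5.26 in wild type, and F54C4.4 had 109 and 74.1 in the triple mutant, 9.96 and 9.82 in meg-3/4 and 10.4 and 13.4 in wild type. Among the 12 largest gains Y48A6B.8 had the highest wild-type level, with 1371 and 1401 in hrde-1; meg-3/4, 325 and 229.8 in meg-3/4 and 210.1 and 224 in wild type.

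W01A11.7 (WBGene00020912, chromosome V, 6504540 to 6505389) had 471 and 449 normalized counts in hrde-1; meg-3/4, 54.2 and 15.7 in meg-3/4 and 38.8 and 23.4 in wild type. Its neighbour moc-2, which acts in molybdenum cofactor synthesis and lies 358 bases away on the same strand, had 217 and 249 in hrde-1; meg-3/4, 6.64 and 3.93 in meg-3/4 and 14.5 and 7.01 in wild type. moc-2 was higher by a ratio of 15.13 but is not a gain, because its meg-3/4 ratio of 0.653 falls just below the band. It was the single neighbour altered in the same direction among 23 adjoining genes and pseudogenes of the gains that met the level, beside 2.42% of all such genes.

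Few gains carry a gene name. cisd-3.1, which encodes a CDGSH iron-sulfur domain protein, had 391.7 and 365 normalized counts in hrde-1; meg-3/4, 39.8 and 46.2 in meg-3/4 and 31.8 and 34.4 in wild type. exl-1, which encodes a protein of the chloride intracellular channel family, had 171 and 192 in hrde-1; meg-3/4, 48.7 and 59.9 in meg-3/4 and 38.2 and 33.9 in wild type. pen-2, which encodes a subunit of gamma-secretase, had 74.7 and 78.0 in hrde-1; meg-3/4, 17.7 and 22.6 in meg-3/4 and 19.1 and 23.9 in wild type. The triple-mutant libraries of all 3 genes lay above every other library, among them the descendants, which the rule did not use. elb-1, the gene for the ubiquitin ligase adaptor elongin B, had 495 and 540.0 in hrde-1; meg-3/4, 251 and 256 in meg-3/4 and 182 and 192 in wild type, so that meg-3/4 was also above wild type, by a ratio of 1.35. The fifth named gain, seld-1, is described with the descendants.

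The remaining gains had ratios of 2.56 to 4.69. W04A8.9 (chromosome I) had 10328 and 9434 normalized counts in hrde-1; meg-3/4, 3458 and 3309 in meg-3/4 and 2999 and 3087 in wild type. B0250.8 (WBGene00007125, chromosome V, 20469894 to 20470485) had 10869.9 and 10099 in hrde-1; meg-3/4, 3403 and 3255 in meg-3/4 and 3547 and 3795 in wild type. Per kilobase of exon the mean of B0250.8 was 20927 normalized counts in the triple mutant and 7328 in wild type, the highest of the gains on that scale. At the weak end, ZK858.8 had 52.2 and 50.5 in the triple mutant and EEED8.2 had 54.9 and 52.8, just over the level required. The other members of this range were Y11D7A.7, Y61A9LA.4, C34C12.1, C53A5.13, C07G3.8, ZC317.6, ZK1128.7, ZK512.4 and the 3 genes next to the threshold.

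The median level of the losses was 63.3 normalized counts in hrde-1; meg-3/4, 323 in meg-3/4 and 390.5 in wild type. The ratio of hrde-1; meg-3/4 to wild type ranged from 0.0712 to 0.391, with a median of 0.234. The summed level was 6731 and 6303 normalized counts in the triple-mutant libraries and 29621 and 30744 in the wild-type libraries. F15D4.5 and F55A3.6 held 40.7% of that sum in wild type. No loss reached 0 in the triple mutant: the lowest, srg-34, kept 8.10 and 4.73 normalized counts.

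T27F6.8 (WBGene00012107, chromosome I) had the lowest ratio. It had 106 and 85.1 normalized counts in hrde-1; meg-3/4, 1217 and 1251 in meg-3/4 and 1362 and 1457 in wild type. Its exons overlap K11D2.1 on the opposite strand, which was itself lower in the triple mutant. Y102A5C.36 (WBGene00044213, chromosome V, 16926922 to 16927445) had 59.4 and 51.2 in hrde-1; meg-3/4, 772 and 576 in meg-3/4 and 876 and 741 in wild type. ZC123.1 had 40.5 and 40.99 in hrde-1; meg-3/4, 329.7 and 324 in meg-3/4 and 476 and 469 in wild type, so its meg-3/4 ratio of 0.695 lay near the lower edge of the band. T16G12.4 had 113 and 125 in hrde-1; meg-3/4, 1335 and 1859.9 in meg-3/4 and 765 and 1459.7 in wild type. The wild-type libraries of T16G12.4 lay far apart, and both exceeded the triple mutant.

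Of the losses with a gene name, glb-14, a globin gene (WBGene00008996, chromosome V, 15543106 to 15544994), had 30.6 and 18.1 normalized counts in hrde-1; meg-3/4, 314 and 231 in meg-3/4 and 372 and 374 in wild type. rnh-1.3, which encodes a ribonuclease H family protein, had 204.4 and 215 in hrde-1; meg-3/4, 2916 and 2577 in meg-3/4 and 1988 and 2103 in wild type. hil-8, a linker histone H1-like gene whose symbol does not begin with the prefix left out, had 139.6 and 109.6 in hrde-1; meg-3/4, 774 and 717 in meg-3/4 and 754 and 754 in wild type. In these 3 genes the triple-mutant libraries were the lowest of all 24, among them the descendants, which the rule did not use. srg-34, a chemoreceptor gene of the serpentine class, had 8.10 and 4.73 in hrde-1; meg-3/4, 32.1 and 57.0 in meg-3/4 and 54.4 and 67.7 in wild type. pde-1, a cyclic nucleotide phosphodiesterase gene, had 119 and 125 in hrde-1; meg-3/4, 498 and 417 in meg-3/4 and 507 and 493 in wild type. Of the 8 measured UDP-glucuronosyltransferase genes, ugt-31 is the only member, with 124 and 117 in hrde-1; meg-3/4, 317 and 260.2 in meg-3/4 and 419.6 and 396 in wild type. The meg-3/4 libraries of ugt-31 lay between the triple mutant and wild type.

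rrf-2 (WBGene00004509, chromosome I), a homologue of the RNA-dependent RNA polymerase genes that make secondary siRNAs, was the only member found in the lists of small RNA pathway genes. It had 81.0 and 52.0 normalized counts in hrde-1; meg-3/4, 269 and 293 in meg-3/4 and 223 and 224 in wild type. Its level in the descendants was 121 to 225 with a median of 159, between the triple mutant and wild type. sesn-1, the sestrin gene, had 19.8 and 27.6 in hrde-1; meg-3/4, 52.0 and 48.1 in meg-3/4 and 63.1 and 77.1 in wild type. tra-3, a calpain-type protease gene of the sex determination pathway, had 27.01 and 30.0 in hrde-1; meg-3/4, 65.3 and 79.5 in meg-3/4 and 82.2 and 81.2 in wild type. pll-1, a phospholipase C-like gene (WBGene00004045, chromosome III, 365949 to 377570), had 487 and 460.4 in hrde-1; meg-3/4, 1339 and 1131 in meg-3/4 and 1216 and 1226 in wild type. All of these stayed well above 0 in the triple mutant.

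Also among the 12 largest losses, C46G7.5 had 63.0 and 48.1 normalized counts in hrde-1; meg-3/4, 428 and 382 in meg-3/4 and 527 and 541 in wild type. Y116A8C.25 had 14.4 and 13.4 in hrde-1; meg-3/4, 95.1 and 84.5 in meg-3/4 and 129 and 102.2 in wild type. ZC204.14 had 45.0 and 38.6 in hrde-1; meg-3/4, 303 and 318 in meg-3/4 and 282 and 303 in wild type. In these 3 genes the triple mutant lay below every other library, among them the descendants, which the rule did not use. The most abundant loss was F15D4.5 (WBGene00008862, chromosome II, 13245376 to 13247774), with 1586 and 1619 in hrde-1; meg-3/4, 9275 and 9197 in meg-3/4 and 7871 and 8147 in wild type. The shortest was C31H5.4, with 183 exonic bases, which had 32.4 and 27.6 in hrde-1; meg-3/4, 107 and 60.9 in meg-3/4 and 103 and 109 in wild type. The others were ZK742.6, B0001.5, Y116A8C.38, F53F8.6, C03A7.2, Y47G7B.2, C38C3.3, F40D4.13, F01D5.10, F58D5.3, Y20F4.4 and C30G7.3, with ratios of 0.162 to 0.390.

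Members that lie close together did not all differ in one direction. gpx-8, of the glutathione peroxidase family, and F55A3.6 lie 1296 bases apart on the same strand of chromosome I, and both are losses. gpx-8 had 89.1 and 73.3 normalized counts in hrde-1; meg-3/4, 1148 and 1275 in meg-3/4 and 1016 and 1056 in wild type, and F55A3.6 had 1425 and 1264 in hrde-1; meg-3/4, 4770.1 and 4494 in meg-3/4 and 4221 and 4303 in wild type. The next feature, the pseudogene F55A3.7, lies 296 bases on and went the other way, with 479 and 521 in hrde-1; meg-3/4, 109.5 and 119 in meg-3/4 and 139 and 130.2 in wild type. ZK262.9 and ZK262.8 share exon bases on one strand of chromosome V, so reads could be split between them, and are not independent members. ZK262.9 had 30.6 and 22.9 in hrde-1; meg-3/4, 196 and 142 in meg-3/4 and 249 and 253 in wild type, and ZK262.8 had 312 and 306 in hrde-1; meg-3/4, 1231 and 1154 in meg-3/4 and 907 and 899.8 in wild type. Y61A9LA.12, a loss, lies 6242 bases from the gain Y61A9LA.4. Y61A9LA.12 had 18.9 and 13.4 in hrde-1; meg-3/4, 168 and 169 in meg-3/4 and 142 and 151 in wild type, and Y61A9LA.4 had 60.3 and 89.1 in hrde-1; meg-3/4, 11.1 and 13.7 in meg-3/4 and 15.0 and 11.1 in wild type.

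Of 25 neighbours of losses that met the level, 10 were at most 0.4 in the triple mutant, beside 7.93% of all autosomal protein-coding genes and pseudogenes at that level. Members of the 2 pairs above account for 4 of these, which the rule itself places at 0.4 or less. The other 6, K11D2.1, cdk-14, F15D4.6, txt-7, F58D5.2 and Y20F4.8, were chosen after their values were seen. Of them, K11D2.1 and cdk-14 overlap the spans of the losses beside them, on the opposite strand. In meg-3/4 these 6 had ratios of 0.0981 to 0.483 to wild type; a ratio outside 0.67 to 1.5 is what keeps such a gene from being a loss, so it is given as a description.

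**Figure D2:**
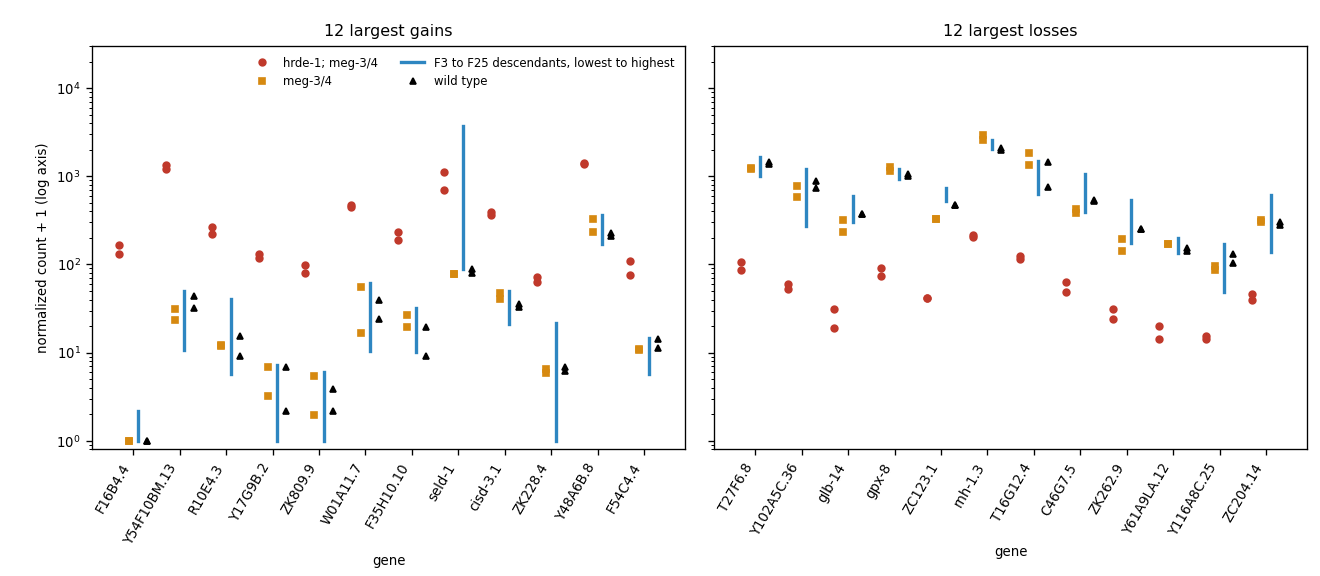
Normalized count plus 1 (log axis) of the 12 largest gains and the 12 largest losses, with 1 point per library for hrde-1; meg-3/4, meg-3/4 and wild type and a bar from the lowest to the highest of 18 descendant libraries. The triple-mutant points stand apart from the other points of each gene, which follows from the rule in part, and seld-1 is the gene whose descendant bar reaches past them.

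In gene structure and position, both sets leaned towards short genes, with exonic lengths of 304 to 4583 bases for the gains and 183 to 4860 for the losses. The rule's limits on chromosome and symbol apply alike to the 4092 genes set beside them. The median exonic length was 843 bases for the gains and 1158.5 for the losses, beside 1723.5 for all 4092 genes that met the level, and 63.3% of the gains and 38.9% of the losses had under 1000 exonic bases, beside 19.2% of those genes. Chromosome arms, set here by the position of a gene along its chromosome rather than by mapped boundaries, held 76.7% of the gains and 86.1% of the losses, beside 57.8%. Chromosome III held 11 of the 30 gains (36.7%) and 2 of the 36 losses (5.56%), beside 22.9% of those genes. Chromosome I held 2 gains (6.67%) and 13 losses (36.1%), beside 24.4%, and chromosome V held 9 gains (30.0%) and 12 losses (33.3%), beside 15.7%. A gene name rather than a clone name was carried by 16.7% of the gains and 30.6% of the losses, beside 68.3%. These shares are descriptions, and the counts are not divided by length.

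The descendants of the meg-3/4 outcross were not used to choose the members. The mean of the 18 descendant libraries lay within 0.67 to 1.5 times wild type for 25 of the 30 gains and 31 of the 36 losses (83.3% and 86.1%), beside 85.5% of the genes that met the level and 98.03% of the 2948 genes with both mutant ratios inside that band. All 9 descendant groups lay within it for 10 gains (33.3%) and 18 losses (50%), beside 69.9% and 87.2% of the same sets of genes. These sets were not matched for level, and 18 of the 30 gains had a wild-type mean under 50. In F10 replicate 1 and F4 replicate 2, 1 read was worth 5.47 and 4.99 normalized counts. The part of low counts in these shares was not tested. The wild-type libraries in these ratios are the ones that chose the members. The 5 gains outside that band were seld-1, and, on the low side, ZK512.4, C15C8.7, C56G2.15 and ZK858.8. The 5 losses outside it were C38C3.3, ZK742.6 and C30G7.3, higher than wild type, and Y47G7B.2 and srg-34, lower. For 29 of 30 gains and 35 of 36 losses no descendant library came level with the triple mutant. The rule itself sets the triple mutant apart from wild type, so these counts follow from it in part. The share among other genes is not given here. The exceptions were seld-1 and Y47G7B.2, for which 3 descendant libraries lay within the range of the triple mutant or below it.

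**Figure D3:**
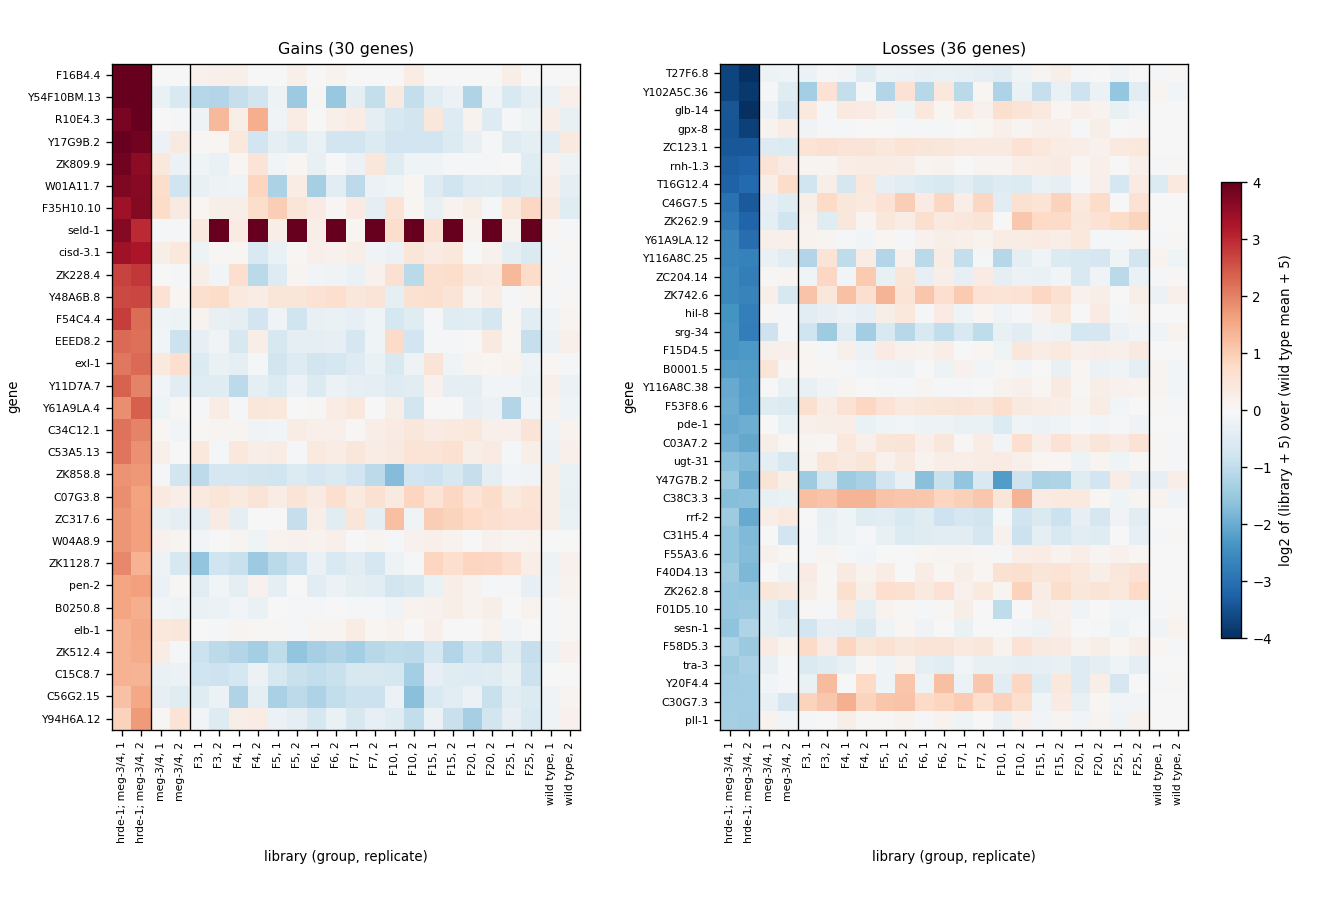
The log2 of each library plus 5 over the wild-type mean plus 5 for the 30 gains (left) and 36 losses (right), largest change at the top; columns are the 24 libraries and the colour scale ends at 4 and -4. The first 2 columns, hrde-1; meg-3/4, carry the colour, the descendant columns are pale for most genes, and the row of seld-1 alternates between replicate 1 and replicate 2.

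seld-1, the gene for selenophosphate synthetase, which makes the selenium donor for selenoproteins (WBGene00012867, chromosome IV, 13505444 to 13509243), behaved unlike any other member in the descendants. It had 1115 and 692 normalized counts in hrde-1; meg-3/4, 77.4 and 77.6 in meg-3/4 and 86.8 and 78.8 in wild type. In the descendants the libraries numbered 2 had 2844 to 3754, with a median of 3447, and those numbered 1 had 88.3 to 137, with a median of 101. All 9 libraries numbered 2 exceeded the triple mutant and all 9 numbered 1 lay near wild type, with no overlap. The difference of replicate 2 over replicate 1 was 4.96 on the log2 scale (SE 0.0636, adjusted p = 2.31e-17, limma on log2 of the normalized count plus 5 with generation as a term), and it was called without each library in turn. The labels do not say whether libraries with the same number come from one line of descent. If they do, the generations are not independent, and p-values of replicate differences, here and below, can be smaller than they should be. Leaving out single libraries does not address this. Its last 20 bases overlap afmd-2 on the same strand, which had 60.8 to 202 in the libraries numbered 2 and 35.9 to 64.8 in those numbered 1.

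Among all 8869 features that passed a filter of 10 normalized counts in 2 libraries, 109 (1.23%) were called higher and 75 (0.846%) lower in replicate 2 than in replicate 1 at an adjusted p of 0.05. All 30 gains and 36 losses passed that filter. Of the gains, seld-1 and C07G3.8 were called higher, and of the losses 4 were called higher and rrf-2 lower. Y102A5C.36 had 603 to 1219 normalized counts in the libraries numbered 2 and 274 to 449 in those numbered 1 (log2 1.18, SE 0.121, adjusted p = 5.45e-05). Y20F4.4 had 1125 to 2639.6 in those numbered 2 and 684 to 1118 in those numbered 1 (log2 1.10, SE 0.0834, adjusted p = 3.93e-06). The ranges of these genes did not overlap, and both remained called without each library in turn.

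ZC204.14 had 243 to 609 normalized counts in the libraries numbered 2 and 136 to 270.4 in those numbered 1 (log2 0.64, SE 0.0943, adjusted p = 0.00172). C46G7.5 had 704 to 1072 in those numbered 2 and 388 to 803 in those numbered 1 (log2 0.48, SE 0.0796, adjusted p = 0.00431). Their ranges overlapped, but the calls held without each library. The calls of C07G3.8 (log2 0.24, adjusted p = 0.021) and rrf-2 (log2 -0.32, adjusted p = 0.0178) did not hold without F6 replicate 1, with limma adjusted p-values of 0.0813 and 0.061, nor without F6 replicate 2, with 0.0816 and 0.0596. C07G3.8 also lost its call without either library of F5 or F7, with adjusted p-values of 0.0516 to 0.0638. The difference between the numbers itself changed with generation in 29 features upward (0.327%) and 17 downward (0.192%), among them the losses ZK742.6 upward and Y116A8C.25 downward.

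**Figure D4:**
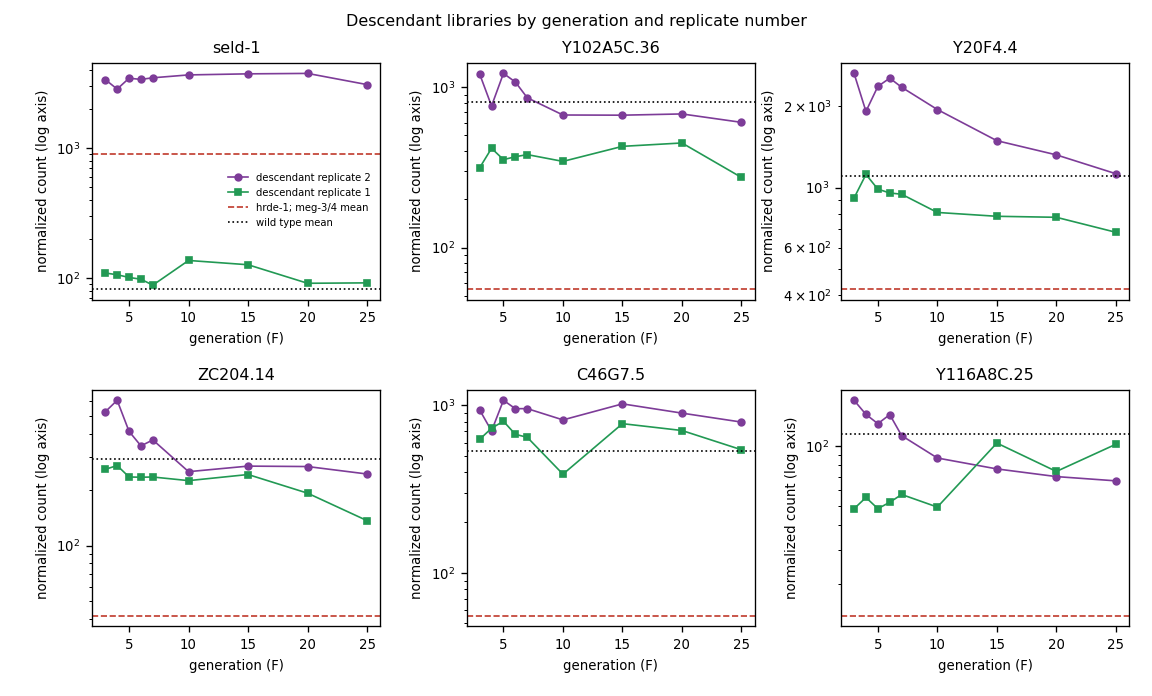
Normalized count (log axis) against generation, F3 to F25, for 6 members, with descendant replicate 2 as circles and descendant replicate 1 as squares; the dashed line is the hrde-1; meg-3/4 mean and the dotted line the wild-type mean. The replicate 2 points of seld-1 lie at 2844 or more in every generation, Y20F4.4 and Y102A5C.36 stay separated from F3 to F25, and the 2 curves of Y116A8C.25 cross.

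Levels of some members changed with generation in the descendants. The slope is the log2 change per 10 generations, from a separate limma fit to all 12 groups, with no term for the replicate number and with 12 residual degrees of freedom. Generations that descend from one another are not independent, so the p-values of the slope can be smaller than they should be. Of all 8869 features, 1410 (15.9%) were called with a rising slope and 811 (9.14%) with a falling one. Of the gains, 7 rose (23.3%) and 2 fell (6.67%), and of the losses 6 rose (16.7%) and 8 fell (22.2%). The median slope was 0.0552 for the gains and -0.0189 for the losses, beside -0.0024 for all features tested.

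ZK1128.7 (WBGene00014233, chromosome III), a gain, had the steepest slope of the members. Its means were 25.9 normalized counts at F3, 25.7 at F4, 30.1 at F5, 45.6 at F6, 41.9 at F7, 57.2 at F10, 111 at F15, 117 at F20 and 90.1 at F25, beside 214 in hrde-1; meg-3/4 and 63.1 in wild type. It rose by 0.91 per 10 generations (SE 0.0845, adjusted p = 1.3e-07, limma), from under the wild-type level to above it. ZC317.6, also a gain, rose by 0.48 (SE 0.123, adjusted p = 0.00691), with means of 50.5 at F3 and 76.8 at F25. B0250.8 rose by 0.15 (SE 0.0351, adjusted p = 0.00397), with means of 3086 at F3 and 3827 at F25. These 3 gains were called without each descendant library in turn, but B0250.8, singled out after its values were seen, was not called with equal library totals (adjusted p = 0.135).

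Among the losses, C30G7.3 and C38C3.3 began above wild type and came down. C30G7.3 had means of 107 at F3, 123 at F4, 119 at F5, 94.3 at F6, 97.8 at F7, 94.3 at F10, 56.2 at F15, 48.0 at F20 and 47.8 at F25, beside 17.2 in hrde-1; meg-3/4 and 52.0 in wild type. It fell by 0.63 per 10 generations (SE 0.0678, adjusted p = 8.71e-07, limma). C38C3.3 had means of 163 at F3, 184 at F4, 158 at F5, 141 at F6, 146 at F7, 142 at F10, 90.98 at F15, 83.2 at F20 and 68.5 at F25, beside 18.1 in hrde-1; meg-3/4 and 69.4 in wild type, and fell by 0.60 (SE 0.0657, adjusted p = 1.11e-06). Both ended at about the wild-type mean by F25. F53F8.6 fell by 0.26 (adjusted p = 9.53e-05), with means of 634 at F3 and 438 at F25, ugt-31 by 0.20 (adjusted p = 0.00136), with 512 at F3 and 392.2 at F25, and F58D5.3, singled out after its values were seen, by 0.21 (adjusted p = 0.0039), with 525 at F3 and 401 at F25. These 5 losses were called without each descendant library in turn.

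The calls of the other 15 members with a slope depended on single libraries. Of those with larger slopes, ZK228.4 rose by 0.51 and exl-1 by 0.29 among the gains, and both lost the call without F25 replicate 1 (limma adjusted p = 0.159 and 0.102). ZC204.14 fell by 0.41 and ZK742.6 by 0.37 among the losses, and were not called without that library (adjusted p = 0.191 and 0.0605). The gain Y61A9LA.4 fell by 0.35 and the losses Y47G7B.2 and srg-34 rose by 0.39 and 0.33, with adjusted p-values of up to 0.38, 0.25 and 0.0864 without single libraries. ZK512.4, Y48A6B.8, C34C12.1, ZK262.9, F40D4.13, T27F6.8, Y116A8C.38 and ZC123.1 make up the rest, with slopes of -0.20 to 0.27. The slope of seld-1 was not called, with an SE of 0.787 in a fit that has no term for the library number.

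**Figure D5:**
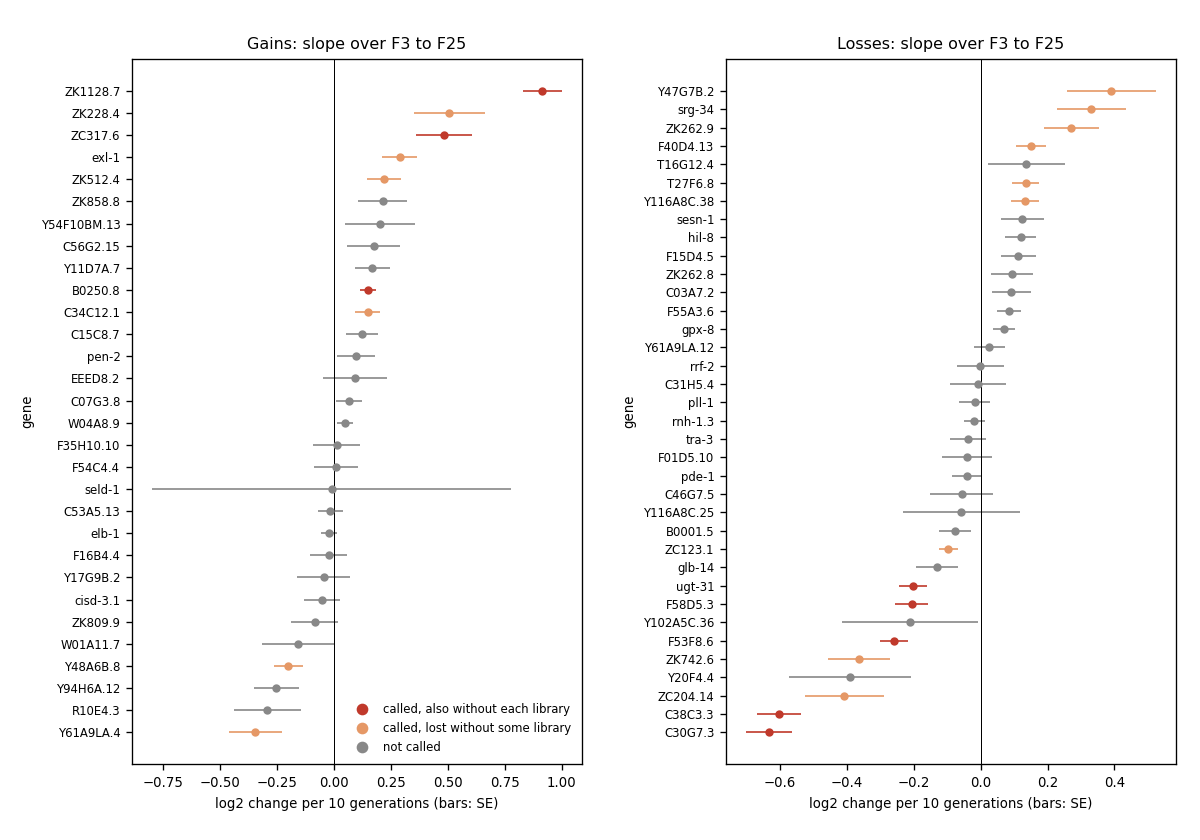
Slope over F3 to F25 as log2 change per 10 generations with its SE, for the gains (left) and the losses (right); dark red marks members called also without each library, orange those called but lost without some library, and grey those not called. ZK1128.7 at 0.91 lies furthest right, and C30G7.3 at -0.63 and C38C3.3 at -0.60 furthest left.

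Antisense small RNAs of the small RNA pathway genes were looked at in the comparison of hrde-1; meg-3/4 with wild type. In it, 5.83% of all features were called higher and 12.4% lower. A gene said to rise or fall did so in these small RNAs, which do not measure its transcripts. Of 19 measured genes of nuclear RNAi and heritable silencing, 1 rose and 4 fell. nrde-2, a nuclear RNAi factor that acts on nascent transcripts, rose by 0.56 on the log2 scale (SE 0.0996, adjusted p = 0.00026, limma). hrde-1, mutated in this strain, fell by 1.14 (adjusted p = 1.59e-06) and hpl-1, a heterochromatin protein gene, by 1.06 (adjusted p = 0.00209). emb-4, a helicase gene of the nuclear pathway, fell by 0.51 (adjusted p = 0.0037), a call lost without a single library. Against meg-3/4, 2 of the 19 genes were called higher and 2 lower. nrde-2 (log2 0.47, limma adjusted p = 0.0017) and hrde-1 (-0.89, 4.43e-05) were called there too, as was set-25 (-0.67, 0.00017), which was not called against wild type (adjusted p = 0.721). There hpl-1 (0.40, adjusted p = 0.272) and emb-4 (-0.24, 0.183) were not called. The list median was -0.0525, beside -0.0203 for all features. Without single libraries the number that fell was 2 or 3, and with quantile normalization 3 rose.

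Of 24 germ granule genes, 4 rose and 3 fell, but the number that rose was 0 with equal library totals, 9 with quantile normalization and 1 to 2 without single libraries. meg-4 fell by 3.18 (limma adjusted p = 1.73e-07) and meg-3 by 2.07 (adjusted p = 7.95e-06), both mutated in this strain. pid-4 rose by 0.70 (adjusted p = 0.0054) and mex-1, an RNA-binding protein gene of the embryo, by 0.68 (adjusted p = 0.00767). Against meg-3/4, 0 of the 24 germ granule genes were called higher and 0 lower, but 4 were higher with equal library totals and 7 with quantile normalization. The calls of pid-4 and mex-1 were lost without single libraries, with adjusted p-values of up to 0.068 and 0.0621. Of 15 Argonaute genes other than hrde-1, wago-1, which binds secondary siRNAs, rose by 0.45 (adjusted p = 0.005), a call also lost without a single library (0.0614) and with equal library totals. In the list of 27 mutator, RNA-dependent RNA polymerase and RNAi genes, 2 fell, of which one is rrf-2, chosen from this contrast, and the other is rsd-2, which acts in systemic RNAi, by 0.64 (adjusted p = 0.044, and 0.364 without a single library); 4 fell with equal library totals and 1 with quantile normalization. The 15 measured piRNA pathway genes gave 0 calls with limma, while 1 was higher and 1 lower at an unadjusted p under 0.05 and 1 was called higher with quantile normalization.

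Against meg-3/4, 10.6% of features were called higher and 8.63% lower in hrde-1; meg-3/4. Of the 27 mutator, RNA-dependent RNA polymerase and RNAi genes, 1 was higher and 6 were lower, rrf-2 among them. With equal library totals 2 were higher and 3 lower. mut-16 fell by 0.71 (adjusted p = 0.0014, limma), while smut-1 rose by 0.95 (adjusted p = 0.00114). sid-1, the double-stranded RNA channel gene, fell by 3.21 (adjusted p = 4.68e-13), and rde-11, a factor of RNAi by exogenous double-stranded RNA, fell by 3.27 (adjusted p = 2.97e-08). Their differences between the triple mutant and wild type, 0.02 and 0.62, did not pass the test (adjusted p = 0.954 and 0.151). Both genes were thus higher in meg-3/4 than in either the triple mutant or wild type. Neither is a member, since the differences between the triple mutant and wild type fall short of the ratios that the rule asks for. Lists of genes by tissue were counted in the same comparison with wild type, although antisense small RNAs do not measure the transcripts of these genes. Among 23 oocyte and eggshell genes 6 rose, and 2 of 9 sperm genes fell, while 1 of 26 genes of germline mitosis and meiosis rose. Without single libraries the oocyte count was 2 to 3 and the germline count 0. With equal library totals these counts were 2 and 0, and with quantile normalization 11 and 2. The part of these lists in the gains and losses was not tested. Of 23 lists, 3 held a member, each with 1: rrf-2, ugt-31 and srg-34. These lists had 27, 8 and 45 measured genes, beside 66 members among all 8869 features tested.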

How the data were processed

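Per the labels' protocols, a gel cut of whole-animal RNA of roughly 15 to 30 nt was cloned after treatment that admits RNAs with a 5′ triphosphate. Per the submitters' processing notes the authors used cutadapt, Bowtie, featureCounts and DESeq2; the sources used here do not give versions, genome build, annotation or strand setting. The deposited values (signal, called normalized counts) are read counts scaled by a single factor for each library: each of the 386038 values above 0 came out as whole reads within 0.01, and 1 read was worth 0.51 to 5.47 normalized counts.

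Symbols, biotypes and positions came from Ensembl release 115 (WBcel235), which matched 46364 of 46726 features. The authors' build may differ, so coordinates are those of that release; only shares of the same annotation were compared.

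The members and gene lists were chosen with earlier results of these data known. Features with 10 normalized counts in at least 2 libraries (8869) entered limma-trend (limma 3.58.1 under R 4.3.3) as log2 of the normalized count plus 5, two-sided, with Benjamini-Hochberg adjustment over all of them at 0.05. That constant shrinks log2 changes of weak features. Replicate 2 was compared with replicate 1 in the 18 descendant libraries with generation as a term. Alternatives were another constant, other filters, equal library totals, quantile normalization, edgeR 4.0.16 and DESeq2 1.42.0 on recovered reads, a replicate block, and leaving out libraries. The fits were tested on simulated data. Named genes were the 12 largest ratios of each kind, those next to a threshold, in a list, with a gene name, near another member, or called in the descendants (5 a direction). Intervals and limits for 0 counts cover counting error only.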

Additional observations from a re-analysis of the deposited data

Results flagged for a closer look

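The loss Y116A8C.25 and the loss ZK742.6 stood out because the difference between replicate 2 and replicate 1 itself changed with generation, by a limma term added after the levels had been seen. Of 8869 features, 29 (0.327%) were called with a rising and 17 (0.192%) with a falling difference. Generations may not be independent within a library number, so these p-values too can be smaller than they should be. The loss Y116A8C.25 had a change in the difference of -1.04 on the log2 scale per 10 generations (SE 0.13, adjusted p = 0.00133), and stayed called without each library in turn. Its libraries numbered 2 had 171 normalized counts at F3, 87.1 at F10 and 66.8 at F25, and those numbered 1 had 48.2 at F3, 49.2 at F10 and 102.2 at F25, so that the order at F25 was the opposite of that at F3. In the triple mutant it had 14.4 and 13.4, and in wild type 129 and 102.2. The loss ZK742.6 had a change of 0.40 (adjusted p = 0.0397). Its libraries numbered 2 had 278 at F3 and 238 at F25, and those numbered 1 had 448.5 at F3 and 204.5 at F25, and the call was lost in 14 of 18 fits without a single library, with adjusted p-values of 0.00672 to 0.277 over all 18.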

How the results depend on the processing

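Depth limits the weak gains most: in F10 replicate 1 and F4 replicate 2, 1 read is worth about the constant added, and 18 of 30 gains have a wild-type mean under 50. Membership moved with every choice: 21 to 44 gains and 30 to 43 losses met the rule under other constants, levels and scalings, 26 to 35 and 32 to 37 without single libraries, and with equal library totals 26 gains and 31 losses met it, of which 21 and 22 are members here. Equal library totals shifted the median of hrde-1; meg-3/4 against wild type to -0.11 and against meg-3/4 to 0.21, and quantile normalization shifted that against wild type to 0.11 (log2).

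Of 174 counts under other settings than leaving out a library, 143 stayed within 1.5 times. The cause of the moves was not tested beyond the number of features tested. With no filter on low values, 478 features of 25049 had a falling slope, 4 gains rose and 0 fell, 2 losses rose, 27 features were higher and 9 lower in replicate 2, as was 1 gain higher and 0 losses lower. With equal library totals, 1408 features were higher and 439 lower in hrde-1; meg-3/4 than in meg-3/4, 4 gains and 1 loss rose over generations, and 38 features and 0 losses were lower in replicate 2. With quantile normalization, 939 features were higher than in wild type, 4 gains fell over generations, and 1 gain was higher and 2 losses lower in replicate 2. With edgeR, 811 features were higher than in wild type, 1 gain fell over generations, and 167 features were higher and 195 lower in replicate 2, with 2 losses lower; with DESeq2, 1 gain fell and 132 features were lower. Without the 2 low-depth libraries, 163 features were lower in replicate 2, and the replicate difference changed with generation upward in 67 features and 1 gain and downward in 60 features and 3 losses. With a constant of 1, 0 losses changed upward.

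Without single libraries, 293 to 331 features were higher and 852 to 882 lower than in wild type, and 591 to 669 higher and 520 to 567 lower than in meg-3/4. The slope rose in 898 to 1586 features, 4 to 7 gains and 1 to 8 losses, and fell in 319 to 973 features, 0 to 3 gains and 5 to 9 losses. Replicate 2 was higher in 56 to 138 features, 1 to 2 gains and 4 to 6 losses, and lower in 23 to 139 features and 0 to 3 losses. The replicate difference changed upward in 8 to 44 features and 0 to 1 loss and downward in 11 to 39 features and 1 to 2 losses.

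With replicate number as a block, 1471 features rose and 884 fell over generations, among them 7 and 2 gains and 7 and 10 losses, and no count over all features or over the members moved by over 1.5 times. Y20F4.4 (limma adjusted p = 0.00532), glb-14 (0.0471) and hil-8 (0.0432) were called with the block but not in the main fit. hil-8 was also called with quantile normalization (limma adjusted p = 0.0354). Of the gene lists, in hrde-1; meg-3/4 against meg-3/4 the block gave 2 germ granule genes higher in place of 0, and 2 sperm genes and 2 germline genes lower in place of 1 each. Of 36 pairs of descendant groups, 31 had correlated deviations of over 0.1, from -0.0535 to 0.665, and the values were 0.0634 between hrde-1; meg-3/4 and wild type, 0.224 between hrde-1; meg-3/4 and meg-3/4 and 0.103 between meg-3/4 and wild type. Most pairs of descendant groups thus deviated together by library number, which the main slope fit leaves out. The labels do not say what libraries of one number share.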
